A study of Mus musculus with 8 samples.

Results

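The inhibin, activin and TGF-beta genes described here are 10 mouse genes, taken by symbol from the 54532 genes of a count table: the subunit genes Inha, Inhba and Inhbb, the activin antagonist Fst, the receptor genes Amhr2, Tgfbr1 and Tgfbr2, and the ligand genes Tgfb1, Tgfb2 and Tgfb3. Their mRNA was measured by RNA-seq in MA-10 cells, a mouse Leydig tumour cell line that makes progesterone, either wild type (WT) or after CRISPR/Cas9 disruption of Mttp (KO). Mttp encodes microsomal triglyceride transfer protein (MTP), which loads lipid onto apolipoprotein B. There were 4 WT and 4 KO libraries, and all 8 came from cells grown for 48 h and then given 0.5 mM 8-BrcAMP, a cell-permeable cAMP analogue, for 3 h, so no unstimulated cells enter the comparison. KO cells were selected as colonies grown from single cells, and which KO colony was sequenced was not given, so an effect of the knockout and a difference between cell clones cannot be told apart. The 4 libraries of a group are described in the study as biological replicates; whether each came from a culture of its own was not stated, so the p-values measure the spread between these libraries.

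Inhibin is a dimer of the alpha subunit encoded by Inha with a beta subunit encoded by Inhba or Inhbb, and activin is a dimer of beta subunits alone. Activins and TGF-betas bring type I and type II receptor kinases together, which phosphorylate SMAD2 and SMAD3, whereas inhibin bound to betaglycan occupies activin type II receptors and so opposes activin. In the testis, Sertoli cells are the main source of circulating inhibin B, Leydig cells also make inhibin subunits, and anti-Mullerian hormone (AMH) made by Sertoli cells acts on Leydig cells through the receptor AMHR2.

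Before the values, the sequence upstream of 4 of the genes is shown: those of Amhr2, Inhbb and Tgfb1, the members higher in KO cells for which the RefSeq table held a window at the start of the gene, and that of Tgfbr2, the member without a read. Of the 10 genes, 8 had an entry in the RefSeq promoter table of GRCm38.p6. Of those, 7 had a RefSeq start within 50 bases of the gene start in the count table. The RefSeq start of Inha lay 532 bases inside the gene, and its entry was not used. Each sequence is the 250 bases before the RefSeq start, 5′ to 3′ on the strand of the gene. The windows are chr15:102445117-102445366 (plus strand) for Amhr2, chr1:119422249-119422498 (minus strand) for Inhbb, chr7:25686752-25687001 (plus strand) for Tgfb1 and chr9:116175364-116175613 (minus strand) for Tgfbr2. Capitals mark a match to AAGGTCA, the site read by NR5A factors such as SF-1, the product of Nr5a1 and a regulator of steroidogenic genes.
Amhr2: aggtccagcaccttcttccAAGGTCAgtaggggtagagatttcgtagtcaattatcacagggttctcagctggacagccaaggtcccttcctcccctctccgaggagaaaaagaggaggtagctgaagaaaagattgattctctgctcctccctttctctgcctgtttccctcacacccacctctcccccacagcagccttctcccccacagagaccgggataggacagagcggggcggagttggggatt
Inhbb: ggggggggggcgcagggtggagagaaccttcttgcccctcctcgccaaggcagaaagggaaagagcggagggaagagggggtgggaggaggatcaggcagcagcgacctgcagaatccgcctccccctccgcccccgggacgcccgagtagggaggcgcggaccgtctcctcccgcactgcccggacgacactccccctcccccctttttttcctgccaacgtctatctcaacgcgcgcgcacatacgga
Tgfb1: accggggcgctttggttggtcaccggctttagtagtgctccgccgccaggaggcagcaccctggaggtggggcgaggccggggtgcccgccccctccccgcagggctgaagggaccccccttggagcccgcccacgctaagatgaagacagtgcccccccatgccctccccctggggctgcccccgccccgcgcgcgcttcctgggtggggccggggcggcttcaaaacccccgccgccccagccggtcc
Tgfbr2: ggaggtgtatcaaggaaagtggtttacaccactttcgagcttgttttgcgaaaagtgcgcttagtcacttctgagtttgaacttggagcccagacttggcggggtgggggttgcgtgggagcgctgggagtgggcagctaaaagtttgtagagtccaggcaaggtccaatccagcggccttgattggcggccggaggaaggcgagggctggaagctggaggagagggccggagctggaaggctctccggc
Of the 7 usable windows, that of Amhr2 alone held AAGGTCA on either strand, from position -231 to -225 relative to the start, and 4.08% of 32851 RefSeq windows of the same length held it. The cAMP response element TGACGTCA, present in 1.55% of windows, was found in 0 of the 7, and its shorter half-site TGACG, present in 17.8% of windows and contained in the full element, was found in 1, that of Tgfb2, from -72 to -68 on the opposite strand. The windows of Inhbb and Tgfb1 held 21 CpG each, that of Tgfbr2 held 12 and that of Amhr2 held 5. These matches describe letters only, and binding was not measured.

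Read counts per gene were scaled to the library total, adjusted by a TMM factor close to 1, as CPM (reads of the gene in every 1000000 counted), and by gene length in kb where genes were compared with each other. Library totals ranged from 15075610 to 16321292 counts in WT cells and from 14927989 to 18394797 in KO cells, so that 1 count was worth 0.0544 to 0.0674 CPM. In WT cells Mttp itself was 13.1 ± 1.04 CPM (SD, n = 4), and 5.87 ± 1.27 CPM was left in KO cells, which gives a log2 fold change of -1.15 (edgeR quasi-likelihood test, Benjamini-Hochberg adjusted p = 4.45e-06); the edited sequence itself was not examined. All adjusted p-values below come from that test, fitted over 13185 genes that passed a filter on low counts, with log2 fold changes as KO minus WT and a threshold of 0.05. In that fit 5632 genes differed (42.7%), 2856 of them higher (21.7%) and 2776 lower (21.1%) in KO cells, and their median log2 fold change was -0.0019. Chromosome 19 as a whole had a median of 0.51 and chromosome 3 of -0.22, whereas the chromosomes that hold the 10 genes had medians from -0.088 to 0.11.

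Of the 10 genes, 8 passed the filter, 4 of those rose in KO cells (Inha, Inhbb, Amhr2 and Tgfb1), 2 fell (Fst and Tgfb3) and 2 did not pass the test (Inhba and Tgfbr1). That is 75% called, against 42.7% of all tested genes. Past a log2 fold change of 0.5 in size there were 4, 2 in each direction, against 15.8% of all tested genes. In 6 of the 8 the WT and KO libraries did not overlap in CPM, as in 38.6% of all tested genes. The median log2 fold change of the 8 was 0.15. With so few genes these shares are descriptive.

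The levels of the 10 genes spanned several orders of magnitude per length. In WT cells the order in CPM per kb was Inha (260 ± 5.25), Amhr2 (76.6 ± 4.51), Tgfbr1 (18.95 ± 1.25), Tgfb1 (10.1 ± 0.770), Inhba (2.64 ± 0.452), Tgfb3 (0.832 ± 0.112), Inhbb (0.530 ± 0.158), Fst (0.467 ± 0.0675), Tgfb2 (0.0194 ± 0.0186) and Tgfbr2 (0). Among neighbours in that order, the WT libraries of Inhbb and Fst overlapped, and so did those of Tgfb2 and Tgfbr2. In KO cells Inhbb (0.938 ± 0.119) stood above Tgfb3 (0.370 ± 0.0634), the reverse of the WT order, the other ranks were as in WT cells, and neighbours did not overlap.

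**Figure D1:**
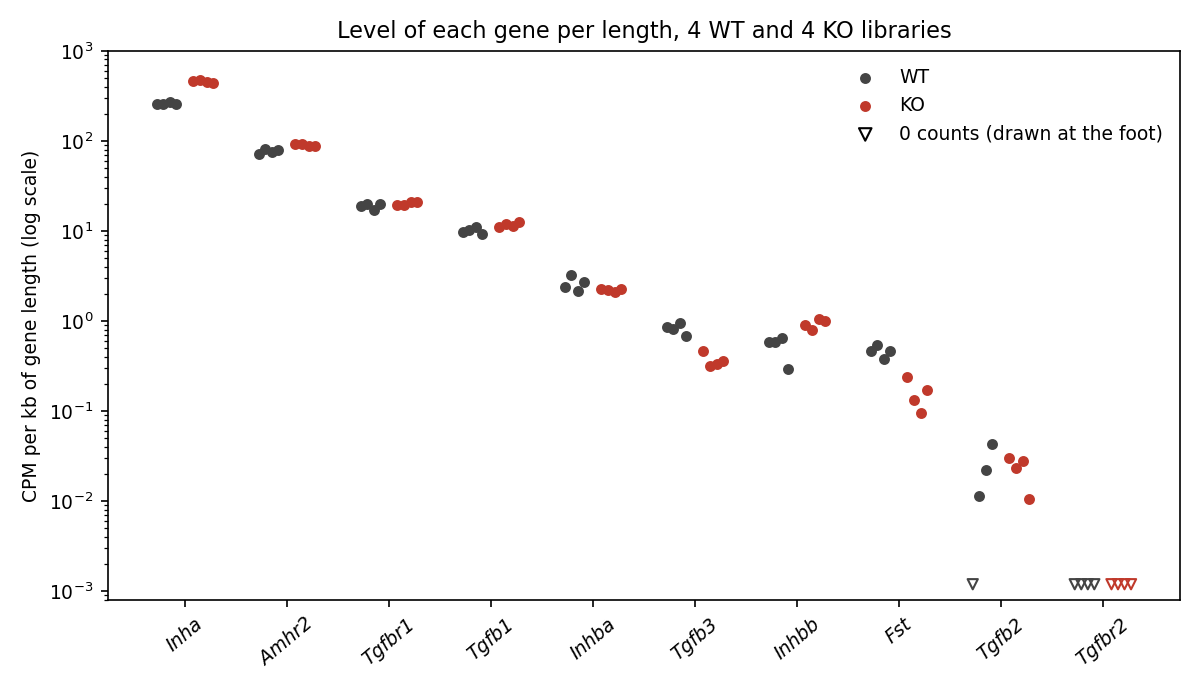
CPM per kb of gene length on a log axis for the 10 genes, ordered by their WT mean, with 1 point per library (4 WT, 4 KO) and libraries without a count drawn as triangles at the foot. Inha lies above all others, between 256 and 268 in WT and 439 and 475 in KO libraries, and Tgfbr2 has no count in any library.

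Inha, which encodes the subunit that makes a dimer an inhibin, had the highest level per length of the 10 and rose by 1.75-fold. The gene lies at chromosome 1, 75507077 to 75510366 (GRCm38). It stood at 382, 378, 395 and 381 CPM in WT replicates 1 to 4 and at 680, 701, 656 and 648 CPM in KO replicates 1 to 4. Every KO library was above every WT library, and the spread within either group was small beside the gap. The means were 384 ± 7.74 and 671 ± 24.2 CPM (SD, n = 4), and the log2 fold change was 0.81 (SE 0.043, adjusted p = 7.43e-10, edgeR).

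The activin and inhibin beta subunits moved unlike each other. Inhbb, which encodes the beta-B subunit, was at 2.51, 2.52, 2.74 and 1.26 CPM in the WT libraries and at 3.81, 3.37, 4.52 and 4.27 CPM in the KO libraries, from 20 to 83 counts. The groups did not overlap, and WT replicate 4 was the lowest of the 8, apart from the other WT libraries. The group means of Inhbb were 2.26 ± 0.672 and 3.99 ± 0.507 CPM, and it rose by 0.83 on the log2 scale (SE 0.21, adjusted p = 0.00538, edgeR); without WT replicate 4 it was 0.63 (adjusted p = 0.0123). Inhba, which encodes the beta-A subunit and was the higher of both beta genes per length, was at 15.4, 20.6, 14.0 and 17.5 CPM in WT and at 14.4, 14.0, 13.5 and 14.4 CPM in KO libraries. Its KO values lay close together at the low end of the WT range and overlapped it. The log2 fold change of Inhba was -0.26 (95% interval -0.49 to -0.030, adjusted p = 0.064, edgeR), which missed the threshold, but without WT replicate 1 it was -0.30 (adjusted p = 0.0406) and without WT replicate 3 it was -0.33 (adjusted p = 0.0198), whereas without WT replicate 2, the highest of the WT libraries, it was -0.15 (adjusted p = 0.271), so that the size and the call of Inhba turned on single WT libraries.

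Fst, which encodes follistatin, a secreted protein that binds activin and blocks its access to receptors, was low in both groups and lower in KO cells. Its level was 2.14, 2.52, 1.76 and 2.15 CPM in WT and 1.10, 0.607, 0.436 and 0.792 CPM in KO libraries, from 8 to 38 counts. All 4 KO libraries were below the lowest WT library. Mean Fst was 2.14 ± 0.310 CPM against 0.733 ± 0.284 CPM, and it fell by 1.54 on the log2 scale (SE 0.28, adjusted p = 0.000362, edgeR). Fstl3, which encodes a related activin-binding protein, also fell, from 28.4 ± 1.00 to 19.8 ± 2.74 CPM (log2 fold change -0.52, adjusted p = 0.000175, edgeR).

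Amhr2, the type II receptor for AMH, showed a small rise. It was at 142, 163, 151 and 158 CPM in WT libraries and 187, 187, 174 and 176 CPM in KO libraries. The lowest KO library was above the highest WT library. It rose by 0.24 on the log2 scale (SE 0.052, adjusted p = 0.00181, edgeR), where the median over all tested genes of chromosome 15, on which Amhr2 lies, was 0.11. Its ligand gene Amh was at most 0.609 CPM in any library and was not tested.

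**Figure D2:**
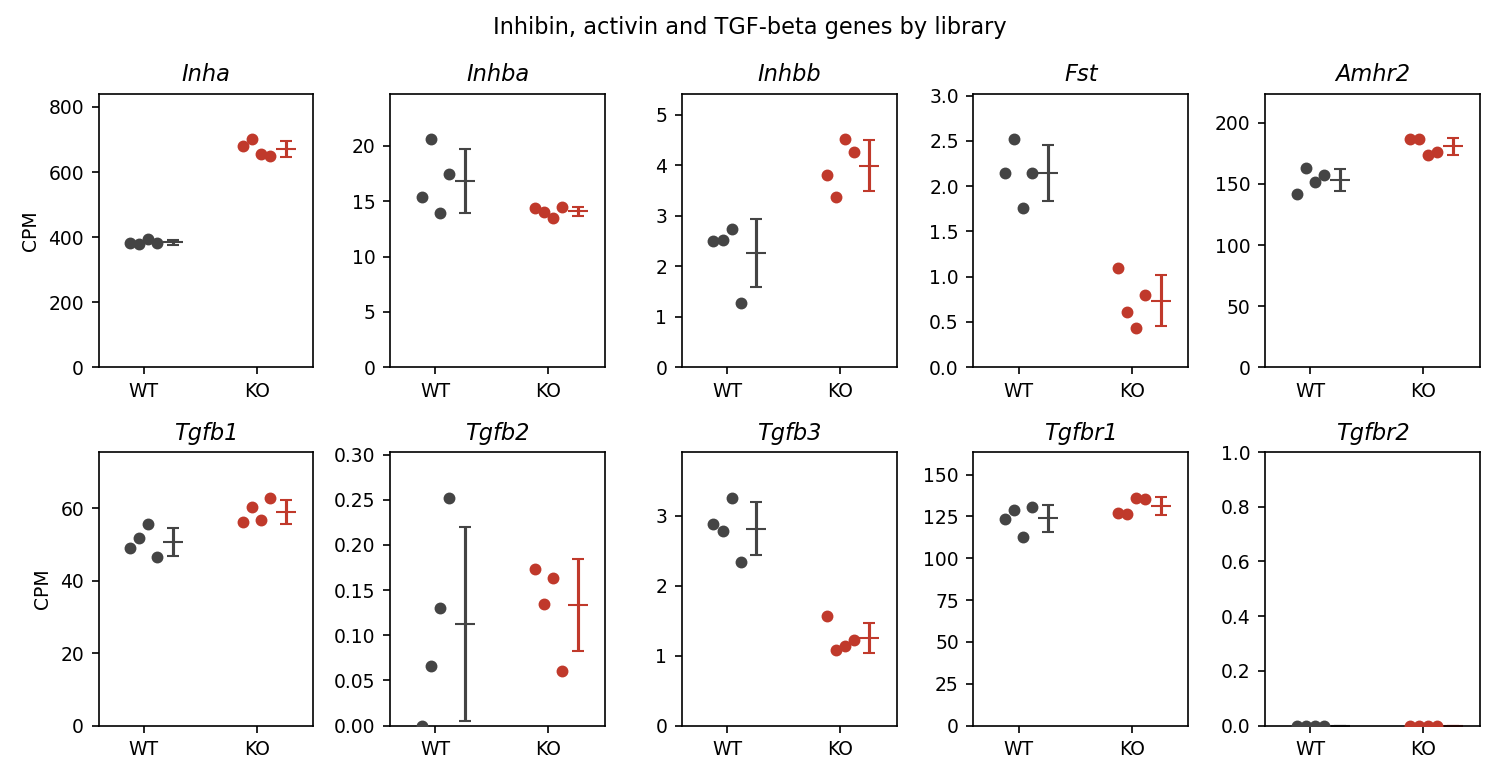
CPM of each of the 10 genes in 4 WT and 4 KO libraries (points, linear axes from 0, scaled per gene), with mean and SD beside them. The groups are apart for Inha, Inhbb, Fst, Amhr2, Tgfb1 and Tgfb3, they overlap for Inhba, Tgfb2 and Tgfbr1, and Tgfbr2 is at 0 throughout.

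The 3 TGF-beta ligand genes differed in level and in direction. Tgfb1, the most abundant per length, was at 49.1, 51.7, 55.5 and 46.4 CPM in WT and 56.1, 60.2, 56.6 and 62.9 CPM in KO libraries. The groups did not overlap, although WT replicate 3 and KO replicate 1 were close. Tgfb1 rose by 1.16-fold (log2 fold change 0.22, SE 0.065, adjusted p = 0.0127, edgeR). Tgfb3 was at 2.88, 2.78, 3.26 and 2.33 CPM in WT and 1.56, 1.08, 1.14 and 1.22 CPM in KO libraries, from 16 to 50 counts. Each KO library was below each WT library. Mean Tgfb3 was 2.81 ± 0.380 CPM against 1.25 ± 0.215 CPM, and it fell by 1.16 on the log2 scale (SE 0.22, adjusted p = 0.000417, edgeR). Tgfb3 overlaps Ttll5 on the opposite strand, and because the strand setting of the counting was not given, reads from the shared stretch cannot be told apart; Ttll5 itself held 26.1 ± 1.92 CPM in WT cells against 29.9 ± 1.69 in KO cells. Tgfb2 had 0, 1, 2 and 4 counts in WT and 3, 2, 3 and 1 counts in KO libraries. At 16 counts in all it was not tested, and no difference was detectable at this depth.

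The 2 TGF-beta receptor genes lay at opposite ends of the level order. Tgfbr1, which encodes the type I receptor kinase, was at 123, 129, 112 and 131 CPM in WT and 127, 127, 136 and 135 CPM in KO libraries. The groups overlapped. Its log2 fold change was 0.08 (95% interval -0.033 to 0.20, adjusted p = 0.241, edgeR). Tgfbr2, which encodes the type II receptor that binds TGF-beta ligand, had 0 counts in each of the 8 libraries. Over 129708128 counts in all, 0 counts allow a level of up to 0.0231 CPM, or 0.00283 CPM per kb (3 counts over the 8 libraries, for counting error only). The gene lies at chromosome 9, 116084293 to 116175360, minus strand (GRCm38). Beside it 4 genes were read, the 2 nearest protein-coding genes on each side, which were chosen after their values had been seen. Gadl1 had 0 counts and Rbms3 had 1 count in all. Stt3b and Azi2, farther out on either side, ranged from 234 to 313 CPM and from 52.3 to 61.1 CPM. Of the 54532 genes of the count table, which include genes that do not code for protein, 28799 had 0 counts in all 8 libraries. The RefSeq start behind the window printed above lies 3 bases from the gene start in the count table.

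**Figure D3:**
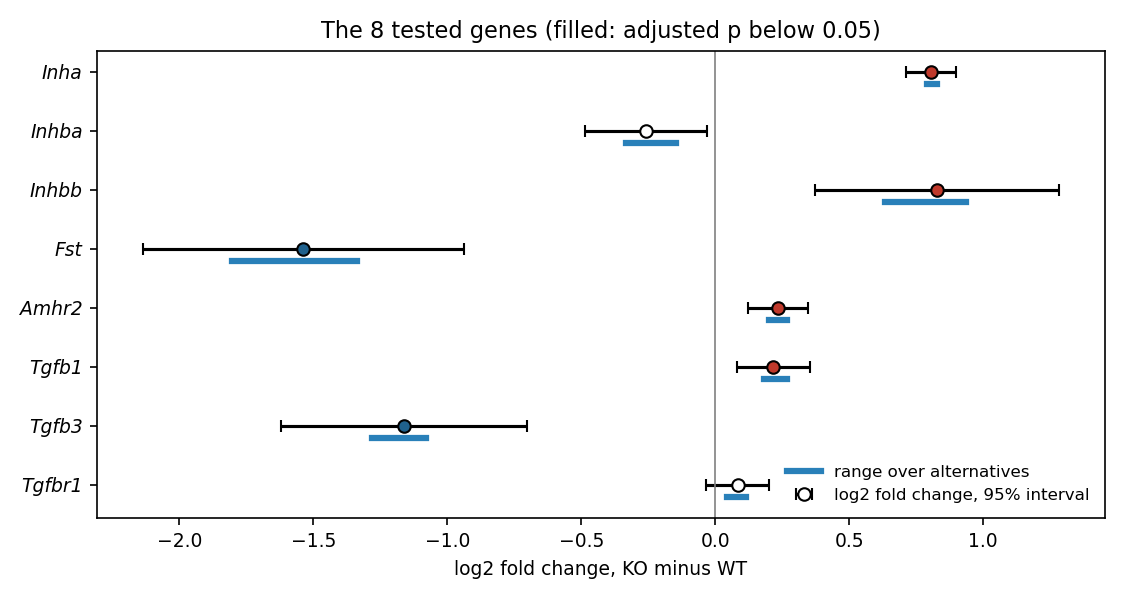
Log2 fold change, KO minus WT, of the 8 tested genes with 95% intervals (black) and the range over the alternative settings (blue); filled points passed the adjusted p threshold of 0.05. Inha, Inhbb, Amhr2 and Tgfb1 lie to the right of 0 and Fst and Tgfb3 to the left under every setting that tested them.

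Ratios between transcripts, formed within each library from CPM per kb, do not depend on the library total. They describe mRNA and not assembled dimers, and no p-value is given because they repeat the values above. The ratio of Inha to the sum of Inhba and Inhbb was 86.4, 67.0, 94.8 and 85.2 in WT and 146, 159, 140 and 135 in KO libraries, without overlap. Its mean was 83.4 ± 11.7 in WT and 145 ± 10.6 in KO cells, 1.74-fold higher. The ratio of Inhba to Inhbb was 4.09, 5.45, 3.39 and 9.22 in WT and 2.51, 2.77, 1.99 and 2.25 in KO libraries, so that beta-A transcripts outnumbered beta-B in every library, by less in KO cells. The high value of WT replicate 4 is the library with the low Inhbb count. The ratio of Tgfb1 to the sum of Tgfb2 and Tgfb3 was 11.4, 12.3, 11.2 and 12.6 in WT and 22.6, 34.9, 30.7 and 33.6 in KO libraries, 2.57-fold higher in the mean. Tgfb1 was the main TGF-beta ligand transcript per length in both groups.

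**Figure D4:**
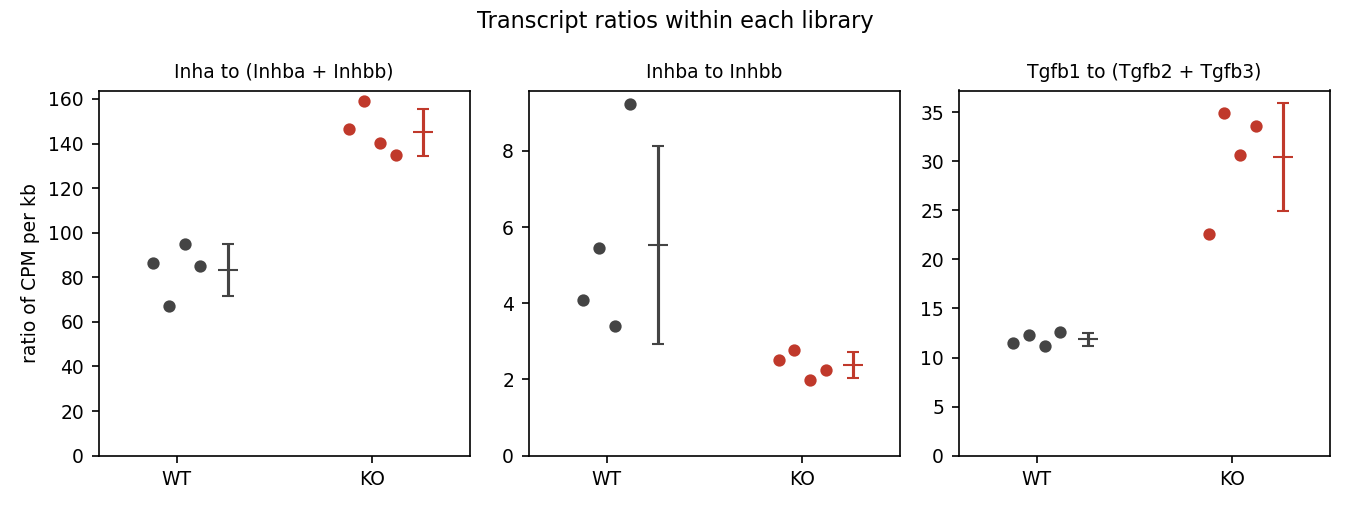
Ratios of CPM per kb within each of the 4 WT and 4 KO libraries (points), with mean and SD. KO libraries are higher in Inha to the beta subunits (135 to 159 against 67.0 to 94.8) and in Tgfb1 to the other TGF-beta ligands (22.6 to 34.9 against 11.2 to 12.6), and lower in Inhba to Inhbb (1.99 to 2.77 against 3.39 to 9.22).

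For the 4 genes past a log2 fold change of 0.5, the protein-coding genes with the most similar profile were sought among 9794 candidates, by the root mean square difference over the 8 libraries in log2 CPM minus the WT mean. Those nearest Inha were Gas6 (0.0337) and Prpf19 (0.0347), the latter on chromosome 19. Those nearest Inhbb were Borcs6 (0.146) and Ptar1 (0.176), Ptar1 also being on chromosome 19. After the chromosome median was subtracted, the log2 fold change of Prpf19 went from 0.80 to 0.29 and that of Ptar1 from 0.80 to 0.29. Nearest Fst were Shroom3 (0.209) and Tent5a (0.219), and nearest Tgfb3 were Dgat1 (0.131), an enzyme of triglyceride synthesis, and Eln (0.135), which encodes elastin. The measure mainly finds genes with an equal fold change.

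Around these members, 8 lists of pathway genes held 87 genes, of which 57 were tested, 10 rose, 27 fell and 20 did not pass the test (64.9% called, against 42.7% of all tested genes). The median log2 fold change of the 57 was -0.23. The lists were chosen with earlier results of these data known, so these shares are descriptive. Several genes, such as Smad6 and Smad7, stand in more than one list. Among 6 tested ligands, Bmp6 rose from 191 ± 14.8 to 332 ± 15.6 CPM (log2 fold change 0.80, adjusted p = 1.96e-08, edgeR), whereas Bmp2 fell from 50.4 ± 5.00 to 31.0 ± 1.89 CPM. Gdf11, a ligand related to myostatin, also fell (log2 fold change -0.67, adjusted p = 0.0218, edgeR), but did not pass without WT replicate 4 (0.0839) or without KO replicate 1 (0.0731), 2 (0.0505) or 3 (0.0509).

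Among the receptors that the 10 genes work with, the largest rise was in Tgfbr3, which encodes betaglycan, the co-receptor that holds inhibin on activin type II receptors and presents TGF-beta ligands. Tgfbr3 ranged from 18.1 to 20.5 CPM in WT and from 41.7 to 46.9 CPM in KO libraries. It rose by 2.28-fold without overlap (log2 fold change 1.19, SE 0.066, adjusted p = 1.004e-09, edgeR). The activin type II receptor genes did not pass the test: Acvr2a was 47.6 ± 2.19 and 46.3 ± 3.27 CPM, and Acvr2b 2.68 ± 0.993 and 2.68 ± 0.667 CPM, in WT and KO cells. Acvr1b, the activin type I receptor, fell (log2 fold change -0.39) and Bmpr2, a BMP type II receptor, rose (0.50). Acvrl1, a type I receptor best known from endothelial cells, fell from 1.29 ± 0.308 to 0.0642 ± 0.0743 CPM (adjusted p = 1.23e-05, edgeR), with 0 counts in 2 of the 4 KO libraries. Of 8 tested receptor genes, 3 rose, 2 fell and 3 did not pass, where 21.7% of all tested genes rose and 21.1% fell.

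Of the 8 SMAD genes, which encode the transcription factors downstream of these receptors and their inhibitors, 5 fell, 1 rose and 2 did not pass. Of all tested genes 21.1% fell and 21.7% rose, and with 8 genes these counts are descriptive. The 2 SMADs that activin and TGF-beta receptors phosphorylate moved in opposite directions: Smad2 rose from 55.4 ± 2.42 to 85.8 ± 2.32 CPM, and Smad3 fell from 148 ± 15.3 to 113 ± 11.04 CPM (adjusted p = 1.001e-07 and 0.000603, edgeR). Smad3 falls outside the naming rule and was chosen after its values were seen. The inhibitory Smad7 and Smad6 fell (log2 fold changes -0.69 and -0.48), as did Smad9, a BMP SMAD (-1.13). Smad9 lies on chromosome 3 and was at -0.90 after the chromosome median was subtracted.

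Of 10 tested genes for the latency and activation of TGF-beta, 2 rose and 4 fell, where 21.7% of all tested genes rose and 21.1% fell. Thbs1, whose product thrombospondin-1 can release active TGF-beta from its latent complex, was at 9.18, 9.21, 7.63 and 8.39 CPM in WT and 0.520, 0.472, 0.381 and 0.427 CPM in KO libraries. All KO libraries were far below all WT libraries, 19.1-fold in the mean (log2 fold change -4.24, adjusted p = 9.15e-11, edgeR). Lrrc32 and Ltbp1, which encode proteins that hold latent TGF-beta, fell (-1.24 and -1.19). Pcsk5, a proprotein convertase, rose (0.82), but lies on chromosome 19 and was at 0.31 after the chromosome median was subtracted. Ltbp3, which falls outside the naming rule, was the other gene that rose and also lies on chromosome 19. Its log2 fold change went from 0.31 to -0.20 after the same subtraction.

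Of 5 tested extracellular antagonists, 4 fell and 1 did not pass: besides Fstl3 these were the pseudoreceptor Bambi (log2 fold change -1.17) and the BMP-binding proteins Chrd (-0.57) and Twsg1 (-0.18). Of 9 tested intracellular inhibitors, 5 fell and 2 rose, with the ubiquitin ligase gene Nedd4l at -1.60 and Smurf1 at 0.36. Of 11 tested TGF-beta and activin target genes, 6 fell, 1 rose and 4 did not pass. Col1a1, a collagen chain, fell from 10.5 ± 2.00 to 0.387 ± 0.162 CPM, and Cdkn1a, a cell cycle inhibitor, from 644 ± 33.8 to 382 ± 27.2 CPM (adjusted p = 5.63e-10 and 2.92e-08, edgeR). Of 5 tested BMP target genes, 4 fell, among them Id1 (-0.81), Id3 (-0.45) and Id2 (-0.21), which encode inhibitors of basic helix-loop-helix factors. Beside these counts, 21.1% of all tested genes fell and 21.7% rose. Smad6 and Smad7 are each counted in more than 1 of these lists, so the counts are not independent and are descriptive.

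**Figure D5:**
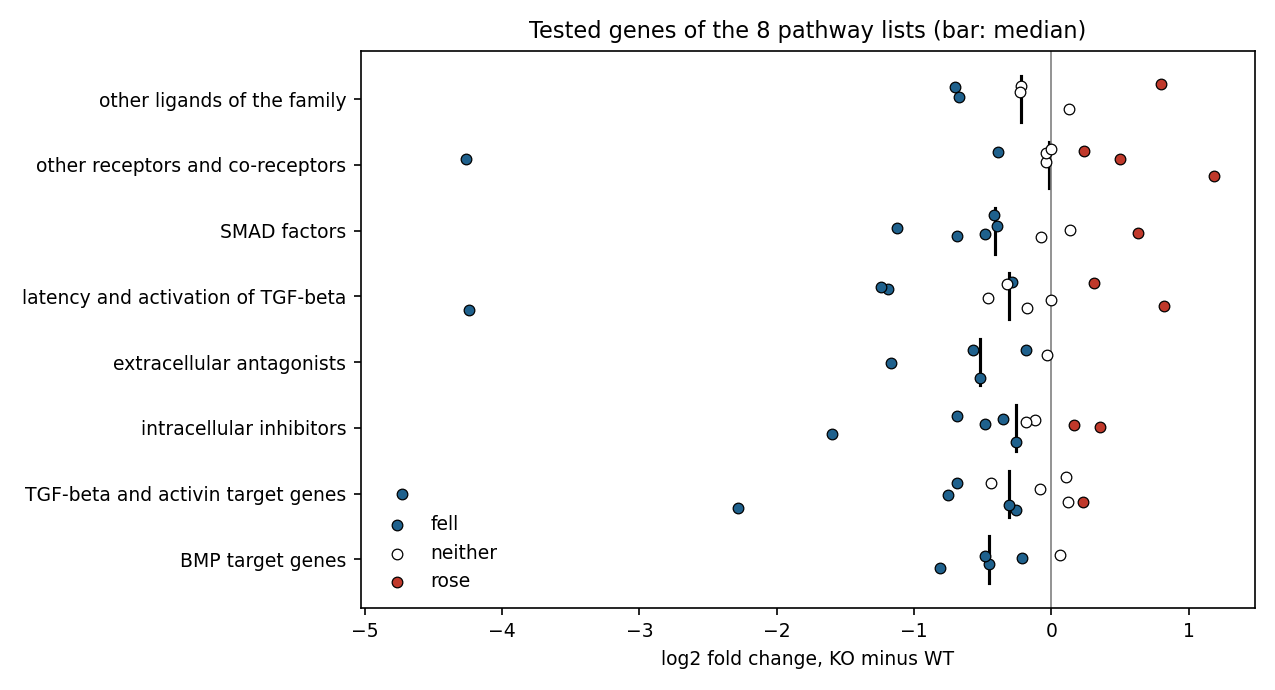
Log2 fold change, KO minus WT, of the tested genes of 8 pathway lists (points; red rose, blue fell, white did not pass the adjusted p threshold of 0.05), with the median of each list as a bar. Medians run from -0.52 for the extracellular antagonists to -0.02 for the other receptors, against -0.0019 over all tested genes.

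Marker lists were read beside the members, because Inha, Amhr2 and the TGF-beta ligands are made by several cell types. The libraries come from a cell line, so the lists check the label and give levels, and are not read as shares of cell types. Bulk libraries cannot tell the number of cells from RNA per cell. Of 7 Leydig cell markers, 5 rose (Lhcgr, Cyp11a1, Hsd3b1, Cyp17a1 and Insl3) and Star and Nr5a1 did not pass. Of all tested genes 21.7% rose. After the chromosome median was subtracted, the log2 fold change of Cyp17a1, on chromosome 19, went from 1.70 to 1.19. That of Hsd3b1, on chromosome 3, went from 1.66 to 1.88. The summed level of the 7 markers was 6566 to 7453 CPM in WT and 7140 to 7872 CPM in KO libraries. Star stood at 5685 ± 340 and 5290 ± 298 CPM. Of 7 Sertoli cell markers 3 were tested and 1 rose, Rhox5, from 167 ± 11.7 to 321 ± 18.5 CPM, which carried the summed level from 228 to 243 CPM in WT to 366 to 409 CPM in KO libraries. Sox9 was at 54.8 and 53.9 CPM, whereas Cldn11 had 0 counts, Fshr 4 and Wt1 15 in all 8 libraries. The 5 granulosa cell markers summed to 0.0663 to 0.652 CPM in WT and 0.231 to 0.708 CPM in KO libraries, with Amh the highest in CPM and Foxl2 at 0.

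Genes listed as markers of 3 other cell types were lower in KO cells beside Fst and Tgfb3. Of those tested, 2 of 2 myoid cell and fibroblast markers, 2 of 2 macrophage markers and 1 of 2 endothelial markers fell. Of all tested genes 21.1% fell, and with so few markers tested these counts are descriptive. The 6 myoid cell and fibroblast markers summed to 9.84 to 14.6 CPM in WT and 0.809 to 1.15 CPM in KO libraries; Col1a1 made up most of the sum in WT cells (10.5 CPM in the mean), whereas in KO cells Col1a1 (0.387 CPM), Pdgfrb (0.245) and Col3a1 (0.198) were close, with Dcn at 0 and Acta2 at 2 counts in all. The 5 macrophage markers summed to 16.4 to 21.4 and 6.47 to 8.98 CPM, all from Cd68 (11.1 ± 1.28 and 3.42 ± 0.706 CPM) and Csf1r, with Adgre1, C1qa and Ptprc at 0. The 4 endothelial markers summed to 182 to 210 and 100.3 to 119.5 CPM, nearly all from Cdh5 (200 ± 13.0 and 108 ± 7.52 CPM), with 3 counts of Tek and 65 of Pecam1 in all. The 4 germ cell markers, led by Ddx4 (2.82 ± 1.07 and 3.78 ± 0.859 CPM), summed to 1.56 to 4.16 and 2.90 to 4.81 CPM. The part of other cells in the changes of the 10 genes was not tested.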

How the data were processed

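Poly-A selected mRNA from 4 WT and 4 KO libraries of MA-10 cells was sequenced. The authors deposited raw read counts per gene; HISAT2 (2.0.5) and featureCounts (1.5.0-p3) are named in the submitters' processing notes, and gene positions match GRCm38, whereas the notes list other builds. Strand setting and handling of multi-mapped reads were not given in the sources used here. Gene length, which the deposited table also gives in bases, served to form CPM per kb. The genotype label reads wild type for all samples, so groups were taken from sample titles.

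Counts were tested with edgeR (4.0.16, R 4.3.3) quasi-likelihood fits of KO against WT with TMM factors and filterByExpr (minimum count 10, total 15). Pairs of replicates differed by more than sampling noise, and all 8 libraries were kept. Intervals are 95%. Alternatives were DESeq2 (1.42.0), limma voom (3.58.1), other scalings and filters, a replicate block and leaving out each library; scripts were tested on simulated data. Named genes were the 10 members, Mttp, up to 4 called genes with the largest change per pathway list, the 2 nearest profiles of each member past 0.5 (with 5 CPM or more in whichever group was higher), and the gene highest in CPM per marker list; others are given only as list members or where stated, and 1 gene that this rule names is not reported here. The activin type II receptors and the further Leydig, Sertoli and other markers were named for their roles. Of 5 ratios defined, 3 had at least 10 counts in every library on each side, summed over the genes of that side. Tgfb2 by itself held 0 to 4 counts in a library. Members and lists were chosen with earlier results of these data known. The symbol Ccn2 was matched as Ctgf.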

Additional observations from a re-analysis of the deposited data

Results flagged for a closer look

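In 5 of 134 groups of 4 libraries checked, 1 library stood apart from the other 3 by Dixon's criterion, and chance gives about 1 in 20. Inhbb was 1.26 CPM in WT replicate 4, where the other WT libraries held 2.51 to 2.74 CPM. Rhox5 was 149.8 CPM in WT replicate 1, against 172 to 174 CPM in the others. Cd68 was 4.46 CPM in KO replicate 3, against 2.92 to 3.18 CPM. Cdh5 was 180.2 CPM in WT replicate 4, against 205 to 207 CPM. Borcs6 was 4.57 CPM in KO replicate 1, against 5.30 to 5.39 CPM.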

How the results depend on the processing

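Of the 10 genes, 6 were called in the fit reported and 5 to 7 over 16 alternatives, with 4 called higher in each of them. The number called lower was 2, and 1 where at least 10 counts were required in every library, since Fst was then not tested; it was 2 to 3 when single libraries were left out, the third being Inhba. Log2 fold changes ranged from 0.79 to 0.83 for Inha, 0.63 to 0.94 for Inhbb, -1.80 to -1.34 for Fst, 0.20 to 0.27 for Amhr2, 0.18 to 0.27 for Tgfb1 and -1.28 to -1.08 for Tgfb3, all past the threshold where tested. For Inhba the adjusted p ranged from 0.0198 to 0.271, for Tgfbr1 from 0.1199 to 0.555 and for Gdf11 from 0.00606 to 0.0839. Over all genes 4821 to 5843 were called, and 34 to 39 pathway genes. With a replicate block 4821 genes and 6 of the 10 were called. Deviations of same-numbered WT and KO libraries correlated from -0.152 to 0.0407, so the numbers were not taken as pairs. The largest correlations between the groups were crosswise, of WT replicate 1 with KO replicate 4 (0.183) and of WT replicate 4 with KO replicate 1 (0.171). What these reflect was not tested. Over the tests of 63 genes (members, Mttp, rule-named genes, nearest profiles, marker genes, Smad3, Acvr2a and Acvr2b), 983 kept direction and side of the threshold, 3 gained a call, 4 lost one and 12 changed sign. Those that gained were Inhba, under both settings already given, and Ddx4 without WT replicate 1 (0.66, adjusted p = 0.0404, edgeR), and those lost were of Gdf11. The sign changes were all in genes near 0 that did not pass: Acvr2b was 0.0018 with DESeq2, 0.0081 without a filter, 0.031 with limma voom, 0.012 with the replicate block and -0.15 to 0.24 when single libraries were left out, over which Nr5a1 was -0.027 to 0.042 and Sox9 -0.11 to 0.075. Depth limits Tgfb2, with 16 counts, and Tgfbr2, with 0.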
